A study of Mus musculus with 6 samples.

Results

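The genes described here carry out antigen presentation on class I molecules of the major histocompatibility complex (MHC) in cultured mouse heart cells. They were chosen by name: 10 symbols, of which the array's annotation gave 9 a probe set, among 19505 genes with a probe set in all. Each of the 9 had 1 probe set. Nlrc5, the transactivator of class I genes, had none and was not analysed here. RNA was measured on 6 Affymetrix arrays, 3 of cardiac fibroblasts (CF), which lay down connective tissue matrix, and 3 of cardiomyocytes (CM), the contracting muscle cells. For each cell type, 1 culture was kept for 48 h with the secretome of Ccrl2+ macrophages, 1 with the secretome of Ccrl2- macrophages, and 1 with phosphate-buffered saline (PBS), which the titles call sham. The labels give all arrays as heart of C57BL/6N mice, 15 to 16 weeks old. The macrophages came from 6 pooled hearts of wild-type mice, sorted 1 week after TAC (transverse aortic constriction, an operation that narrows the aorta so that the heart pumps against higher pressure). Some label fields speak of co-culture with the macrophages themselves, others of their secretome. Since each group had 1 array, no difference below has a replicate check or a test, and precision is limited by that number.

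Class I molecules show peptides from inside a cell to CD8+ T cells and natural killer cells. Proteasomes cut proteins into peptides, the TAP transporter moves these into the endoplasmic reticulum, and tapasin holds the transporter beside an empty class I molecule until a peptide is bound. The molecule is a heavy chain from an H2 gene joined to beta-2 microglobulin. Interferons raise most of these genes in many cell types and bring in the immunoproteasome, in which inducible catalytic subunits take the place of the constitutive ones.

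Values are log2 probe set summaries as deposited, so a difference of 1 is 2-fold. A gene entered a comparison when the brighter of its values reached 6.55, the median of all named values, called the floor below. Where the dimmer value lay under the floor, the distance to the floor is given as a lower bound. Negative control probe sets had a 95th percentile of 10.2 to 10.74, depending on the array. H2-K1, B2m and Tapbp lay above it on all 6 arrays and H2-T23 on 1, while the other members stayed below it. In bulk RNA, fewer cells of a type and less RNA per cell cannot be told apart. The arrays carried the markers of their labels: 9 fibroblast markers averaged 15.65 to 16.24 on the CF arrays, and 10 cardiomyocyte markers averaged 15.87 to 16.11 on the CM arrays. Markers of the other cell type were also present. Fibroblast markers averaged 10.32 to 11.25 on the CM arrays, with Dcn up to 15.67. Cardiomyocyte markers averaged 9.07 to 10.48 on the CF arrays, with Tnnt2 up to 17.03. Of 21 markers of lymphocytes, dendritic cells and neutrophils, only Cd4 reached the floor on any array, with a highest value of 6.72.

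All 9 members had their highest value on the array of fibroblasts with Ccrl2- secretome. Their lowest value fell on the PBS fibroblast array for 5 members and on the cardiomyocyte array with Ccrl2+ secretome for 4. After each member was centred on its own mean, the average over members was 0.06 in fibroblasts with Ccrl2+ secretome, 1.89 with Ccrl2- secretome and -0.69 in PBS. In cardiomyocytes it was -0.61 with Ccrl2+ secretome, -0.39 with Ccrl2- secretome and -0.27 in PBS. The fibroblast arrays thus spread over a wider range than the cardiomyocyte arrays, and the fibroblasts with Ccrl2+ secretome lay between the other fibroblast arrays. For all genes tested, the 5th to 95th percentile of differences from PBS was wider in fibroblasts too. With Ccrl2- secretome it ran from -0.98 to 1.28 in fibroblasts and from -0.57 to 0.57 in cardiomyocytes. With Ccrl2+ secretome it ran from -1.09 to 0.98 in fibroblasts and from -0.49 to 0.44 in cardiomyocytes.

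**Figure D1:**
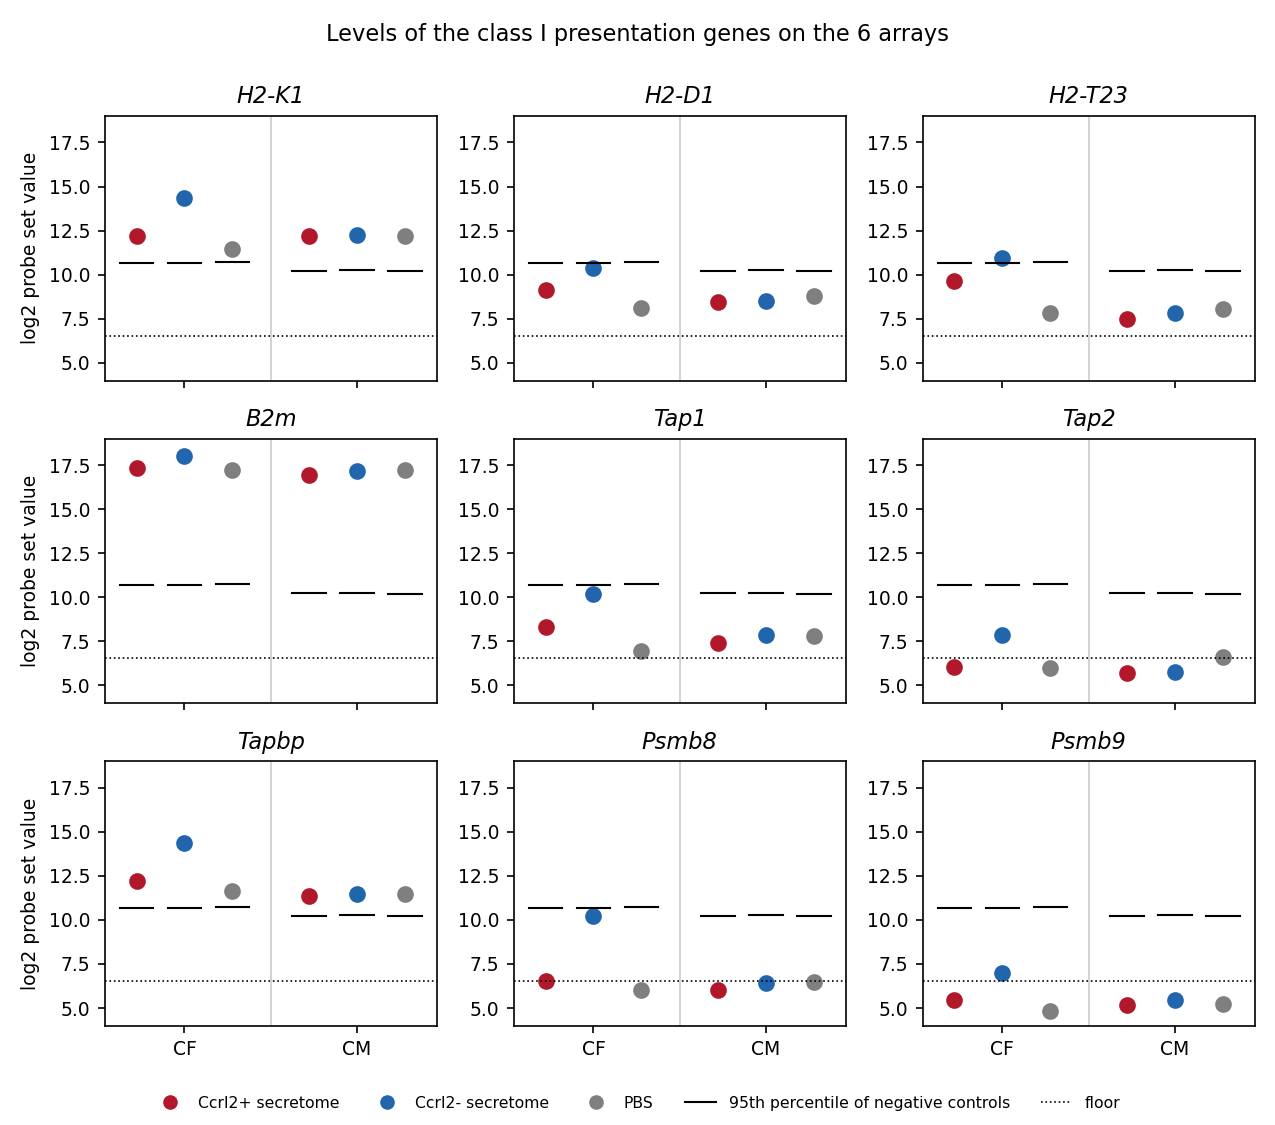
Log2 probe set values of the 9 class I presentation genes (vertical axes) on the 3 fibroblast (CF) and 3 cardiomyocyte (CM) arrays, 1 point per array, with the floor (6.55) dotted and the 95th percentile of the controls as short bars. In every panel the fibroblast array with Ccrl2- secretome is the highest point, from 6.96 for Psmb9 to 18.01 for B2m.

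H2-K1 and H2-D1 encode classical heavy chains, which present peptides to CD8+ T cells. In fibroblasts H2-K1 stood at 12.17 with Ccrl2+ secretome, 14.37 with Ccrl2- secretome and 11.47 in PBS. In cardiomyocytes it stood at 12.22 with Ccrl2+ secretome, 12.27 with Ccrl2- secretome and 12.22 in PBS. The Ccrl2- fibroblast culture was therefore high and the 3 cardiomyocyte arrays were level. The H2-K1 difference from PBS in fibroblasts was 0.7 with Ccrl2+ secretome (1.62-fold) and 2.9 with Ccrl2- secretome (7.46-fold). H2-D1 stood at 9.16 with Ccrl2+ secretome, 10.39 with Ccrl2- secretome and 8.12 in PBS in fibroblasts. In cardiomyocytes it stood at 8.48 with Ccrl2+ secretome, 8.53 with Ccrl2- secretome and 8.82 in PBS. Both secretomes gave H2-D1 a higher value than PBS in fibroblasts, by 1.04 with Ccrl2+ and by 2.27 with Ccrl2-. The H2 genes have near-identical copies whose transcripts can bind each other's probes, so their values cannot be assigned to the named gene alone.

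H2-T23 encodes a nonclassical heavy chain, the mouse counterpart of HLA-E, which shows signal peptides of other class I molecules to inhibitory receptors of natural killer cells. It stood at 9.66 with Ccrl2+ secretome, 10.94 with Ccrl2- secretome and 7.82 in PBS in fibroblasts. In cardiomyocytes the values were 7.49 with Ccrl2+ secretome, 7.83 with Ccrl2- secretome and 8.05 in PBS. Its difference from PBS with Ccrl2+ secretome in fibroblasts, 1.84 (3.58-fold), was the largest of the members there and lay above that of 98.5% of genes tested. With Ccrl2- secretome it was 3.12 (8.69-fold). In cardiomyocytes with Ccrl2+ secretome it was -0.56.

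The start regions of H2-K1 and H2-D1 are shown because they share a long run of letters. Both genes were higher with Ccrl2- secretome in fibroblasts, as was H2-T23, whose region is not shown. RefSeq's windows (GRCm38.p6, 300 bases each, most of them before the gene start) were available for 8 members, and H2-K1 has 2 overlapping ones, of which the window with the lower start is given. Capitals mark matches on either strand to the interferon-stimulated response element (GAAA, any 2 bases, GAAA), to GAANNGAAA (a shorter element for interferon regulatory factors not contained in the longer one), to TTCNNNGAA (gamma-activated site), to TGACG (which lies within the cyclic AMP response element TGACGTCA) and to CCAAT (Y box). The windows are chr17:34000284-34000583 on the minus strand for H2-K1 and chr17:35262844-35263143 on the plus strand for H2-D1.
H2-K1: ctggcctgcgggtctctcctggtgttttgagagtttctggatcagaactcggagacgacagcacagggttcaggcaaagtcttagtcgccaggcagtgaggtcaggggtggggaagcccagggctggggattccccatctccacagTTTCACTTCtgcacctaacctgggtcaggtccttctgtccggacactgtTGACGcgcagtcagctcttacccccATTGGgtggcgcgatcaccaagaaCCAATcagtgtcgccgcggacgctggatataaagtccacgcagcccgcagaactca
H2-D1: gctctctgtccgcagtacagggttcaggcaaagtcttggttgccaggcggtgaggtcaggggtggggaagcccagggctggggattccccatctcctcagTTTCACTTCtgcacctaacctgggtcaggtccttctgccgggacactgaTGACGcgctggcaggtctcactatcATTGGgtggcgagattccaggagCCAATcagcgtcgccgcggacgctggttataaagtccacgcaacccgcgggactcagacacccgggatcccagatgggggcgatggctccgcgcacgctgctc
Both carry 1 match to GAANNGAAA, which reads TTTCACTTC on the printed strand and starts 104 bases before the gene start in H2-K1 and 150 bases before it in H2-D1. Upstream of it lies a run of 47 bases common to both windows, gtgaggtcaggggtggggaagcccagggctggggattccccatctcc. That run holds GGGATTCCCC, a match to a loose kappa B pattern (GGG, any 5 bases, CC), which was also searched and is not capitalised. Matches to GAANNGAAA occur in 7.52% of the 32817 windows of the same length, and matches to the loose kappa B pattern in 50.8%. The H2-T23 window shares at most 8 bases in a row with that of H2-K1 and 12 with that of H2-D1. It holds 1 match to the interferon-stimulated response element and none to GAANNGAAA or the loose kappa B pattern. H2-T23 was higher by 3.12 with Ccrl2- secretome in fibroblasts. A match describes letters and not a bound factor.

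B2m encodes beta-2 microglobulin, the light chain of every class I molecule. It stood at 17.32 with Ccrl2+ secretome, 18.01 with Ccrl2- secretome and 17.24 in PBS in fibroblasts, and at 16.93 with Ccrl2+ secretome, 17.15 with Ccrl2- secretome and 17.21 in PBS in cardiomyocytes. B2m was bright on all arrays, and its range over the 6 arrays (1.08) was the smallest of the members. Within the cardiomyocyte arrays alone, H2-K1 and Tapbp varied less. Whether values this high still follow the amount of RNA was not tested. Its difference from PBS in fibroblasts was 0.08 with Ccrl2+ secretome and 0.77 (1.71-fold) with Ccrl2- secretome, the only member that did not reach 2-fold there. That Ccrl2- difference in fibroblasts was the smallest of the members. The B2m window is shown because it holds GAAACTGAAA, a match to the interferon-stimulated response element starting 139 bases before the gene start. That pattern occurs in 3.43% of all windows and, among the 8 members with a window, in B2m and H2-T23. The window is chr2:122147437-122147736 on the plus strand.
B2m: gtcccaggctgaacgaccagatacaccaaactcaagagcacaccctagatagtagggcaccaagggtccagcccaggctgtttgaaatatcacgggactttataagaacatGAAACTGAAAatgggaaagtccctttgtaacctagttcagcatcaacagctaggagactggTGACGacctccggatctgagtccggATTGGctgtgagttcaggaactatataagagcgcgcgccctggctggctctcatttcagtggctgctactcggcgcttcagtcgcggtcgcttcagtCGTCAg
The same window holds TGACG on both strands and the Y box, and TGACG also occurs in the windows of H2-K1, H2-D1, Tap1 and Psmb9. Of all windows, 20.8% hold TGACG and 37.4% hold CCAAT. The Y box was found in 7 of the 8 members, all but Psmb8, and the full TGACGTCA in 0 of 8 against 1.79% of all windows.

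Tap1 and Tap2 encode the subunits of the peptide transporter. In fibroblasts Tap1 stood at 8.29 with Ccrl2+ secretome, 10.21 with Ccrl2- secretome and 6.97 in PBS. In cardiomyocytes it stood at 7.41 with Ccrl2+ secretome, 7.86 with Ccrl2- secretome and 7.8 in PBS. Both fibroblast cultures with secretome were above PBS, and the cardiomyocyte arrays lay between the fibroblast extremes. The Tap1 difference from PBS in fibroblasts was 1.32 (2.5-fold) with Ccrl2+ secretome and 3.24 (9.45-fold) with Ccrl2- secretome. Tap2 stood at 6.07 with Ccrl2+ secretome, 7.86 with Ccrl2- secretome and 6.0 in PBS in fibroblasts. In cardiomyocytes it stood at 5.69 with Ccrl2+ secretome, 5.77 with Ccrl2- secretome and 6.64 in PBS. Tap2 thus reached the floor on only 2 arrays, fibroblasts with Ccrl2- secretome and cardiomyocytes in PBS. Its difference from PBS with Ccrl2- secretome in fibroblasts was 1.86, with a lower bound of 1.31 (2.48-fold).

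Tapbp encodes tapasin. It stood at 12.18 with Ccrl2+ secretome, 14.34 with Ccrl2- secretome and 11.62 in PBS in fibroblasts, and at 11.35 with Ccrl2+ secretome, 11.47 with Ccrl2- secretome and 11.46 in PBS in cardiomyocytes. The difference from PBS in fibroblasts was 0.56 with Ccrl2+ secretome and 2.72 (6.59-fold) with Ccrl2- secretome. Like H2-K1, Tapbp had this difference at values that exceeded the 95th percentile of the controls.

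Psmb8 and Psmb9 encode inducible catalytic subunits of the immunoproteasome. Psmb8 stood at 6.56 with Ccrl2+ secretome, 10.2 with Ccrl2- secretome and 6.02 in PBS in fibroblasts, and at 6.05 with Ccrl2+ secretome, 6.42 with Ccrl2- secretome and 6.46 in PBS in cardiomyocytes. The Ccrl2- fibroblast culture stood apart from all other arrays, of which the highest lay 0.01 above the floor. The Psmb8 difference of 4.18 from PBS with Ccrl2- secretome was the largest of the members, with a lower bound of 3.65 (12.6-fold), and lay above that of 99.2% of genes tested. Psmb9 stood at 5.45 with Ccrl2+ secretome, 6.96 with Ccrl2- secretome and 4.84 in PBS in fibroblasts, and at 5.15 with Ccrl2+ secretome, 5.47 with Ccrl2- secretome and 5.22 in PBS in cardiomyocytes. It reached the floor on 1 array only. Its difference of 2.12 from PBS with Ccrl2- secretome therefore has a lower bound of 0.41 (1.33-fold), which is short of 2-fold.

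In the gene table of GRCm38.p6, Psmb9, Tap1, Psmb8 and Tap2 follow each other on chromosome 17 with no other protein-coding gene between them. The windows of Tap1 and Psmb9 lie on opposite strands and share 275 bases, so the Tap1 window (chr17:34187306-34187605, plus strand) is shown for both. The Psmb8 window (chr17:34197945-34198244, plus strand) is shown as that of the member with the largest difference.
Tap1: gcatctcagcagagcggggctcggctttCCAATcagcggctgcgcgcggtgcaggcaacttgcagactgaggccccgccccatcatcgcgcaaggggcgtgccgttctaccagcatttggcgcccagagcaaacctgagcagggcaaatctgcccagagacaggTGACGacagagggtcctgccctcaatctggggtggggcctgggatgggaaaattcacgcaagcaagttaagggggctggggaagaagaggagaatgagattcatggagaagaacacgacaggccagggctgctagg
Psmb8: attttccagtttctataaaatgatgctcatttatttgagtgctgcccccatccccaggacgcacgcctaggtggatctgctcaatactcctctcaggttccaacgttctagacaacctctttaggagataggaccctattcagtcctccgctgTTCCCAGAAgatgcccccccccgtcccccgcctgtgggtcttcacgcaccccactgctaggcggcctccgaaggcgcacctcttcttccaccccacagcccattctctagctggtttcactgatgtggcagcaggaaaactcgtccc
The shared Tap1 and Psmb9 window held no match to the interferon-stimulated response element, GAANNGAAA or TTCNNNGAA. Psmb8 was the only member with a match to TTCNNNGAA, which reads TTCCCAGAA, starts 97 bases before the gene start, and is a pattern found in 8.29% of all windows. Tap1 lay above the floor on 6 arrays and Psmb9 on 1, but levels of different probe sets cannot be set against each other.

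Counted together in fibroblasts with Ccrl2- secretome over PBS, 8 of 9 members were 2-fold or more above PBS and 0 were as far below it, against 6.18% of the 10057 genes tested that were higher and 4.83% that were lower. The median difference of the members was 2.72, and that of all genes tested was -0.09. Tap2, Psmb8 and Psmb9 passed the floor there only through the Ccrl2- array, so their entry into this count required a difference. With values under the floor raised to it, 7 members were at least 2-fold higher, against 560 of the 10057 genes by the same rule. Among negative controls that passed the floor, the share at 2-fold or more above PBS was 6.84%. When the brighter value had to exceed the 95th percentile of the controls, a setting chosen after the data were seen, 4 members remained, of which H2-K1, H2-T23 and Tapbp were at least 2-fold higher, against 7.23% of genes and 9.8% of controls.

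With Ccrl2+ secretome over PBS in fibroblasts, H2-D1, H2-T23 and Tap1, 3 of the 7 members past the floor, were 2-fold or more above PBS and 0 were as far below it, against 4.87% of 10042 genes higher and 6.13% lower. Among negative controls that passed the floor, the share above PBS by 2-fold or more was 8.52%. The median difference was 0.7 for the members and -0.07 for all genes tested. H2-D1, H2-T23 and Tap1 did not exceed the 95th percentile of the controls on either array. The brighter members H2-K1, Tapbp and B2m differed by 0.7, 0.56 and 0.08. Tap2 and Psmb9 did not reach the floor in this comparison. Psmb8 passed it only through the Ccrl2+ array (6.56 against 6.02 in PBS), and measured against the floor it differed by 0.01. The count with values raised to the floor was also 3, against 432 of the 10042 genes, and the member median was still 0.7.

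In fibroblasts with Ccrl2+ over Ccrl2- secretome, 8 of 9 members were at least 2-fold lower and 0 higher, against 10.07% of 10144 genes lower and 8.55% higher. Among negative controls that passed the floor, 11.3% were 2-fold or more lower. With the brighter value above the 95th percentile of the controls, 3 of 4 members were lower, against 10.3% of genes and 14.2% of controls. The median was -1.79 for the members and 0.0 for all genes. The differences ran from -0.69 for B2m to -3.64 for Psmb8, with -2.2 for H2-K1, -2.16 for Tapbp, -1.92 for Tap1, -1.28 for H2-T23 and -1.23 for H2-D1. Tap2 (-1.79) and Psmb9 (-1.51) passed the floor only through the Ccrl2- array, so their entry into this count depended on being high there. Measured against the floor they differed by -1.31 and -0.41. With values under the floor raised to it, 7 members were at least 2-fold lower, against 926 of the 10144 genes by the same rule. The member median was then -1.31, and that of all genes 0.0. The 3 fibroblast comparisons share arrays in pairs and are not independent of each other.

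**Figure D2:**
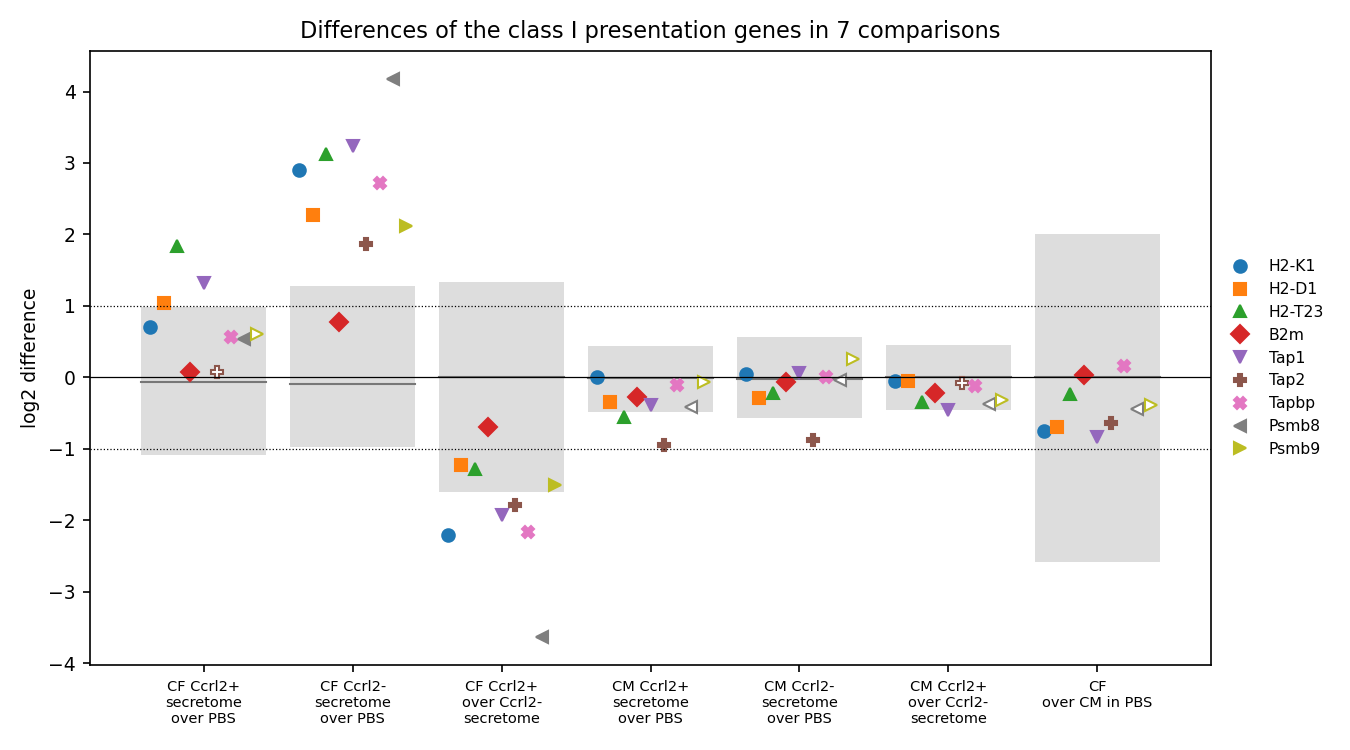
Log2 differences (vertical axis) of the 9 class I presentation genes in 7 comparisons (horizontal axis), open symbols where a gene did not reach the floor, with the 5th to 95th percentile of all genes past the floor in grey, their median as a grey line, and 2-fold dotted. In fibroblasts with Ccrl2- secretome over PBS every member but B2m (0.77) lies above the dotted line, while no member reaches it in the cardiomyocyte comparisons.

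In cardiomyocytes 0 members were at least 2-fold higher or lower in any secretome comparison. With Ccrl2+ secretome over PBS, 0.21% of 10009 genes were higher and 0.629% lower, and with Ccrl2- secretome over PBS 0.746% of 10054 were higher and 0.786% lower. For Ccrl2+ over Ccrl2- secretome the shares were 0.13% and 0.18% of 9995. Negative controls that passed the floor had larger shares. With Ccrl2+ secretome over PBS 6.06% of them were higher and 6.8% lower, and with Ccrl2- secretome 7.93% and 9.77%. For Ccrl2+ over Ccrl2- secretome 8.26% of the controls were higher and 7.59% lower. The member median was -0.34 with Ccrl2+ secretome, against -0.01 over all genes, and 6 of the 7 members past the floor lay below PBS, by up to 0.95 for Tap2, with H2-K1 at 0.0. With Ccrl2- secretome the member median was -0.06, against -0.02 over all genes, and the differences ran from -0.87 for Tap2 to 0.06 for Tap1. Measured against the floor, both Tap2 differences were -0.09. The median of Ccrl2+ over Ccrl2- secretome was -0.17 over 6 members, against 0.0 over all genes.

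Macrophage markers differed between these arrays too. In cardiomyocytes with Ccrl2+ secretome all 12 macrophage and monocyte markers past the floor lay below PBS. Of these, 5 did so by at least 2-fold, against 0.629% of all genes. The mean level over 15 such markers was 8.43 with Ccrl2+ secretome, 8.79 with Ccrl2- secretome and 9.11 in PBS. In fibroblasts the mean was 9.5 with Ccrl2+ secretome, 9.67 with Ccrl2- secretome and 9.63 in PBS. In fibroblasts with Ccrl2- secretome over PBS, 14 such markers passed the floor. Of these, 5 were 2-fold or more above PBS and 6 were as far below it, against 6.18% and 4.83% of all genes. Cardiomyocyte markers differed between the fibroblast cultures as well, with a mean of 10.48 with Ccrl2+ secretome, 9.07 with Ccrl2- secretome and 9.28 in PBS over 10 markers, and 9 of 9 past the floor lay above PBS with Ccrl2+ secretome. Of 5 epicardial and mesothelial markers, 3 were 2-fold or more higher with Ccrl2+ than with Ccrl2- secretome in fibroblasts, the largest being Msln at 3.31. The share over all genes was 8.55%. In cardiomyocytes with Ccrl2- secretome over PBS, 9 of 9 fibroblast markers lay above PBS with a median of 0.91. Of these, 4 did so by 2-fold or more, up to Col3a1 at 2.15, against 0.746% of all genes. The part of these marker shifts in the values of the class I genes was not tested.

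In PBS, fibroblasts over cardiomyocytes gave 0 of 7 members past the floor at 2-fold, against 13.94% of 10394 genes higher and 16.89% lower. Among negative controls that passed the floor, 25.8% were 2-fold or more higher and 4.87% lower. The median of all negative controls was 6.69 on the fibroblast array and 6.26 on the cardiomyocyte array. H2-K1 stood at 11.47 in fibroblasts and 12.22 in cardiomyocytes, a difference of -0.75. Tap1 (-0.83), H2-D1 (-0.7), Tap2 (-0.64) and H2-T23 (-0.23) were also lower in fibroblasts, while B2m (0.03) and Tapbp (0.16) were nearly level. Tap2 was under the floor in fibroblasts, and measured against the floor it differed by -0.09. The member median was -0.64 as measured, which is the Tap2 value, and -0.23 with values under the floor raised to it. The cardiomyocyte culture in PBS also carried endothelial markers, 7 of them with a mean of 8.57 in fibroblasts and 12.67 in cardiomyocytes, and their part in the class I values was not tested.

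Among the remaining proteasome genes in fibroblasts with Ccrl2- secretome, an inducible subunit and 2 of 3 activator subunits were higher. Of all genes tested there, 6.18% were 2-fold or more above PBS and 4.83% as far below it. The 18 genes of the proteasome list on the array (Psmb8 and Psmb9 are not in it) had a median of 0.33. Of these 18, 3 reached 2-fold above PBS and 0 were as far below it. These were Psmb10, the other inducible catalytic subunit (11.54 with Ccrl2- secretome against 7.89 in PBS, a difference of 3.65), and the activator subunits Psme2 (11.88 against 10.37, 1.51) and Psme1 (14.61 against 13.43, 1.18). The 13 constitutive subunits of the catalytic core on the array ranged from -0.16 to 0.67. The activator subunit gene Psme3 (0.14) and Pomp (0.34), which encodes a proteasome assembly factor, lay inside that range. Among them were the catalytic subunits Psmb6 (12.69 with Ccrl2- secretome against 12.85 in PBS) and Psmb7 (14.14 against 13.96), whose places Psmb9 and Psmb10 take in the immunoproteasome. Psmb5, the constitutive counterpart of Psmb8, was not analysed here. With Ccrl2+ secretome 0 of the 18 genes reached 2-fold in fibroblasts, against 4.87% of all genes higher and 6.13% lower. The median was -0.23, and Psmb10 stood at 7.89 against 7.89 in PBS. In cardiomyocytes 0 of the 18 reached 2-fold with either secretome, where each direction held 0.21% to 0.786% of all genes. Psmb10 stood there at 9.1 with Ccrl2+ secretome, 8.73 with Ccrl2- secretome and 9.18 in PBS.

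**Figure D3:**
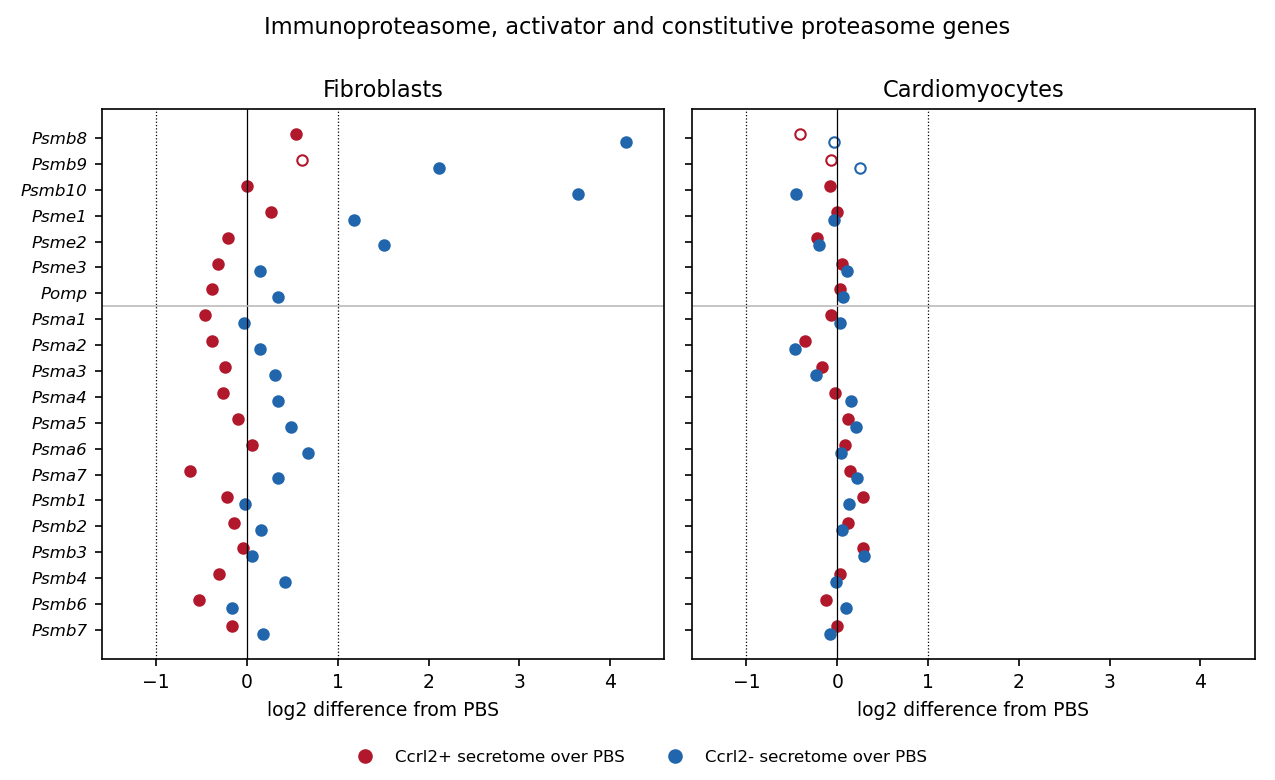
Log2 differences from PBS (horizontal axes) of proteasome genes in fibroblasts and cardiomyocytes, red for Ccrl2+ and blue for Ccrl2- secretome, open where a gene did not reach the floor, 2-fold dotted, inducible and accessory genes above the grey line and constitutive core subunits below it. In fibroblasts with Ccrl2- secretome Psmb8 (4.18), Psmb10 (3.65), Psmb9 (2.12), Psme2 (1.51) and Psme1 (1.18) lie beyond 2-fold and the 13 core subunits do not.

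Other heavy chain genes gave a mixed picture. Of 25 listed, 18 were on the array. In fibroblasts with Ccrl2- secretome 9 passed the floor, and 5 of these were 2-fold or more above PBS and 0 as far below it. Of all genes tested, 6.18% were higher and 4.83% lower. H2-Q4, H2-Q5, H2-M3 and Cd1d1 entered only through the Ccrl2- array, so their entry depended on being high there. With values under the floor raised to it, 3 of these genes were 2-fold or more above PBS, against 560 of all 10057 genes by the same rule. The median was 0.49 over all 18 genes on the array, against -0.04 over all 19505 genes. H2-Q4 stood at 9.92 against 5.49 in PBS, higher by at least 3.37. H2-T10 (12.06 against 10.35) and H2-T22 (9.83 against 8.12), nonclassical heavy chains seen by some gamma-delta T cells, were each higher by 1.71. H2-Q5 (7.13 against 5.06) and H2-M3 (7.16 against 5.71) were counted on their measured differences of 2.07 and 1.45, with lower bounds of 0.58 and 0.61. Mr1, which presents vitamin B metabolites, and Fcgrt, the neonatal Fc receptor chain, lay the other way, at -0.69 and -0.58. With Ccrl2+ secretome H2-T24 (7.59 against 6.28 in PBS, at least 1.04 higher) was the 1 gene of 7 past the floor at 2-fold. Of all genes tested with Ccrl2+ secretome, 4.87% were 2-fold or more above PBS and 6.13% as far below it. Mr1 stood at 10.83 against 9.84 and H2-T10 at 10.22 against 10.35.

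Of the peptide trimming and loading partners, 11 of 12 listed genes were on the array and all passed the floor. With Ccrl2- secretome in fibroblasts Tapbpl, which encodes the tapasin-related peptide editor TAPBPR, was higher by 1.91 (8.73 against 6.82). Erap1, the aminopeptidase that trims peptides in the endoplasmic reticulum, was higher by 1.4 (11.91 against 10.51). The other 9 did not reach 2-fold, and the list median was 0.21. Of all genes tested in that comparison, 6.18% were 2-fold or more above PBS and 4.83% as far below it. The chaperone genes Calr, Canx, Pdia3 and Hspa5 differed by 0.15 to 0.52. With Ccrl2+ secretome 0 of 11 reached 2-fold, against 4.87% of all genes higher and 6.13% lower, and the median was -0.28. In cardiomyocytes 0 of 11 reached 2-fold with either secretome, where each direction held 0.21% to 0.786% of all genes.

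Part of the interferon signalling and regulation list was higher in the same fibroblast culture. Of 34 listed, 32 were on the array and 26 passed the floor with Ccrl2- secretome over PBS, 10 of them 2-fold or more above PBS and 0 as far below it, beside the 6.18% of all genes given above. Irf7, Socs3 and Relb entered only through the Ccrl2- array. Measured against the floor, Socs3 (0.26) and Relb (0.56) were short of 2-fold, which leaves 8 genes. By the same rule 560 of all 10057 genes were at least 2-fold higher. The median was 0.59 over all 32 genes on the array, against -0.04 over all 19505 genes. Irf7, an interferon regulatory factor, stood at 9.96 against 5.51 in PBS and was higher by at least 3.41. Usp18, a negative regulator of interferon receptor signalling, stood at 11.45 against 7.07. The kinase gene Jak2 stood at 14.18 against 10.82, and Irf1, a transcription factor that acts on class I genes, at 11.05 against 7.85. The interferon genes Ifng and Ifnb1, the only ones in the list, did not reach the floor. Ifng lay between 4.02 and 5.03 and Ifnb1 between 3.85 and 4.12 on the 6 arrays. Other interferon genes were not examined. The interferon-gamma receptor genes Ifngr1 and Ifngr2 differed by 0.94 and 0.68.

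With Ccrl2+ secretome in fibroblasts 2 of 23 such genes were at least 2-fold higher, Irf2 (12.19 against 10.57 in PBS) and Ifngr1 (12.39 against 11.34). The median was 0.08. Of all genes tested, 4.87% were at least 2-fold higher. Irf1 stood at 7.68 against 7.85 and Usp18 at 7.13 against 7.07. In cardiomyocytes Usp18 was lower with both secretomes, at 6.8 with Ccrl2+ and 7.45 with Ccrl2- secretome against 8.69 in PBS. No other gene of the list that passed the floor reached 2-fold from PBS. Of all genes tested in cardiomyocytes, 0.629% were 2-fold or more lower with Ccrl2+ and 0.786% with Ccrl2- secretome. Irf7, under the floor there, stood at 4.86 with Ccrl2+ secretome and 6.02 in PBS.

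Class II presentation genes, the counterpart for peptides taken up from outside the cell, were mostly under the floor. Of 9 on the array, 2 passed it in fibroblasts with Ccrl2- secretome: H2-Ab1 (7.05 against 5.18 in PBS, at least 0.5 higher) and the protease gene Ctss (10.16 against 10.61). With Ccrl2+ secretome Ctss alone passed it, at 11.73 against 10.61 in PBS, higher by 1.12. Of all genes tested in that comparison, 4.87% were 2-fold or more above PBS. Ciita, the class II transactivator, lay at 4.38 with Ccrl2+ secretome, 4.17 with Ccrl2- secretome and 4.01 in PBS in fibroblasts. Among receptors for class I and checkpoint ligands, Cd274, which encodes the T cell inhibitory ligand PD-L1, stood at 5.39 with Ccrl2+ secretome, 9.77 with Ccrl2- secretome and 4.95 in PBS, higher by at least 3.22 with Ccrl2- secretome. Pirb, an inhibitory receptor of myeloid cells for class I, stood at 7.7 with Ccrl2+ secretome, 7.72 with Ccrl2- secretome and 5.75 in PBS in fibroblasts. In cardiomyocytes it stood at 7.21 with Ccrl2+ secretome, 7.69 with Ccrl2- secretome and 8.44 in PBS.

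**Figure D4:**
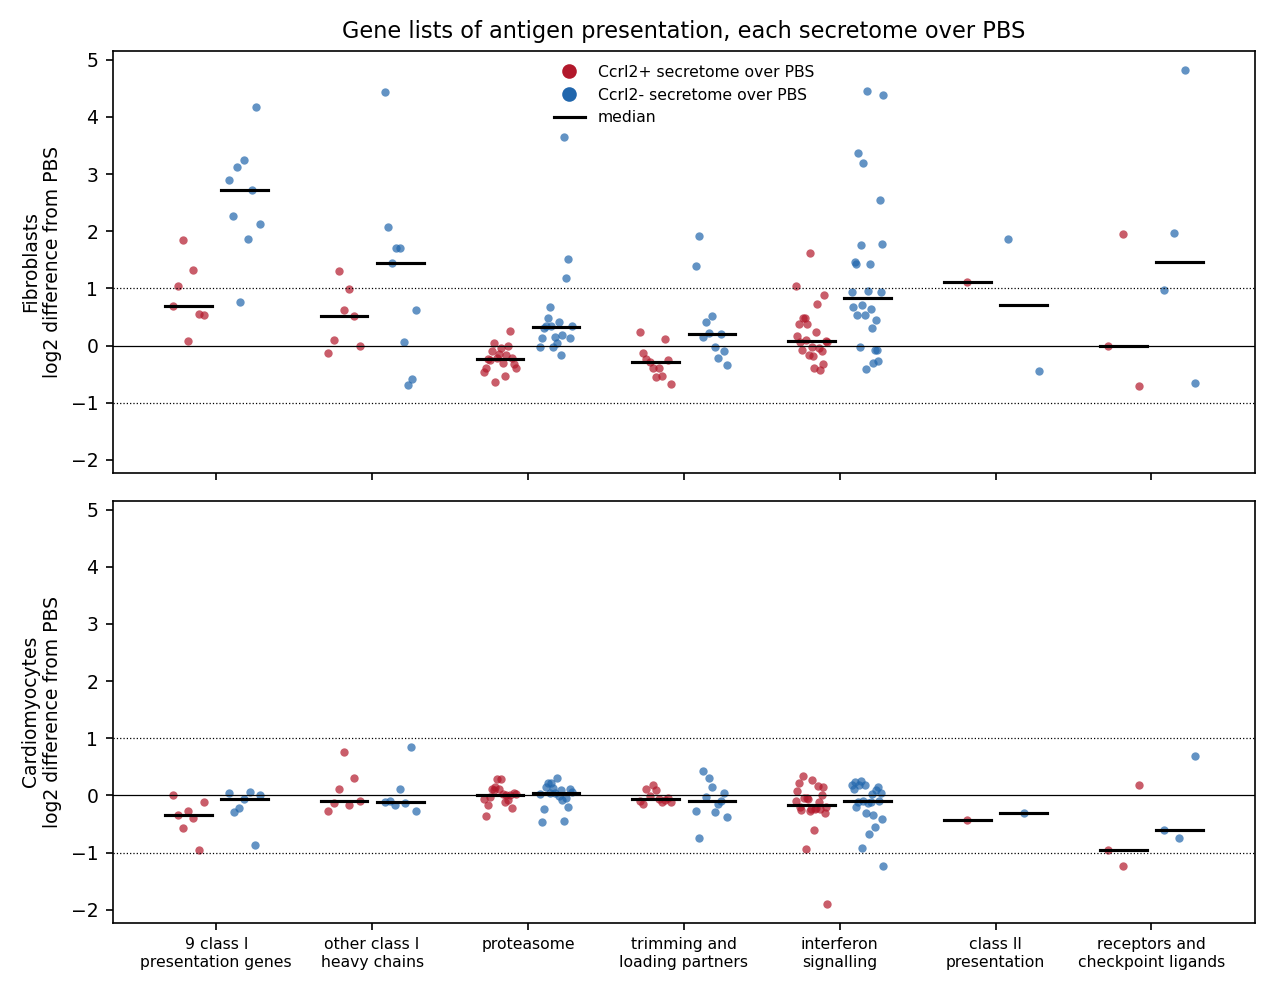
Log2 differences from PBS (vertical axes) of genes past the floor in 7 lists (horizontal axis), 1 point per gene, red for Ccrl2+ and blue for Ccrl2- secretome, fibroblasts above and cardiomyocytes below, with list medians as black bars and 2-fold dotted. In fibroblasts with Ccrl2- secretome all 9 class I presentation genes lie above 0, from 0.77 to 4.18, and in other lists the bars leave out genes under the floor on both arrays, so they are not medians of whole lists.

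The genes whose values over the 6 arrays followed the average of the centred members most closely were, by Pearson correlation, Tifa (0.998), Slc11a2 (0.993), Ccl4 (0.993), Serpina3f (0.992), Nmi (0.988), Nfkb2 (0.987), Slc41a2 (0.987), Ifi35 (0.986), Rffl (0.985) and Casp4 (0.985). Tifa, an adaptor of NF-kB signalling, stood at 9.1 with Ccrl2+ secretome, 11.15 with Ccrl2- secretome and 8.43 in PBS in fibroblasts, and at 8.33 with Ccrl2+ secretome, 8.57 with Ccrl2- secretome and 8.83 in PBS in cardiomyocytes. Members and symbols of predicted genes, olfactory and vomeronasal receptors, small RNAs and clones were left out of this ranking. Of the remaining genes past the floor, 4458 varied over the arrays at least 0.5 times as much as the members' average. Among these 4458, 100 (2.24%) had a correlation of at least 0.95. The 6 points rest mostly on 1 array, fibroblasts with Ccrl2- secretome, where each of these 10 genes also had its highest value, so the correlations describe that shared peak.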

How the data were processed

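The authors deposited log2 values per probe set. The submitters' processing notes name Affymetrix Expression Console as the tool. RNA input was 1 to 8 ug per the labels' protocols. Not given in the sources used here: the tool's version, the summary algorithm, the build. The log2 scale was read from the values. Sorted values of the arrays differed by at most 0.3, so the arrays had been brought to nearly 1 distribution before deposit and a shift of most genes would not be seen. Of 28846 probe sets, 19572 had 1 symbol in the platform annotation. The other 9274 had no single symbol (none, or several together) and were not used as genes. A gene annotated only together with others would thus count as not on the array. For 55 symbols with several probe sets, the one with the highest mean was used. Values of 2 arrays were subtracted and counted at 2-fold with a floor of 6.55, with no p-value. Simulated data, with differences of 2 log2 planted in genes well above the floor, were used to check the counting code only. Their noise was taken from the cardiomyocyte arrays with Ccrl2+ and Ccrl2- secretome. The rate of false counts in the fibroblast comparisons was not tested. The members and lists were chosen with earlier results of these data known. From 6 lists, named genes were up to 4 per list and comparison past 2-fold, plus preset landmark genes. Further genes (such as H2-M3, Mr1, Fcgrt and Canx) were chosen after their values were seen. Likeness was ranked among genes past the floor whose SD was at least 0.5 times that of the members' mean. Members and symbols of predicted genes, olfactory and vomeronasal receptors, small RNAs and clones were left out. Alternatives covered fold, floor, normalization, loess (span 0.4), probe set choice and the H2 genes. Promoters came from RefSeq. Python 3.11.15, numpy 2.4.6, pandas 2.3.3, statsmodels 0.14.6 and matplotlib 3.10.9 were used.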

Additional observations from a re-analysis of the deposited data

Results flagged for a closer look

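The same comparison gave opposite directions in fibroblasts and cardiomyocytes, each by at least 1.5-fold as measured, for 1 member and several genes of the surrounding lists. With 1 array per group these differences between cell types were not tested. For Ccrl2- secretome over PBS, Tap2 differed by 1.86 in fibroblasts and -0.87 in cardiomyocytes, where its brighter value was 6.64. Measured against the floor, the cardiomyocyte difference of Tap2 was -0.09, short of 1.5-fold. In the same comparison the fibroblast and cardiomyocyte differences were 4.38 and -1.24 for Usp18, 1.76 and -0.91 for Stat2, 0.96 and -0.67 for Irf9, and 1.91 and -0.75 for Tapbpl. They were 1.97 and -0.75 for Pirb, 0.97 and -0.6 for the myeloid receptor gene Lilrb4a, and -0.65 and 0.69 for Ulbp1, which encodes a ligand of an activating natural killer cell receptor. For Ccrl2+ secretome over PBS, Pirb differed by 1.95 in fibroblasts and -1.23 in cardiomyocytes. For Ccrl2+ over Ccrl2- secretome, Tapbpl differed by -2.04 in fibroblasts and 0.6 in cardiomyocytes. Measured against the floor, the 2 cardiomyocyte differences of Tapbpl were -0.57 and 0.42, also short of 1.5-fold.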

How the results depend on the processing

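No paired analysis was possible because each group had 1 array, and for the same reason no replicate could be left out. Member differences moved by at most 0.12 log2 under quantile normalization or removal of a loess trend and by at most 0.06 under median centring. For Ccrl2+ secretome over PBS in fibroblasts, the 3 members at 2-fold became 1 at 3-fold, 0 with the floor at the 75th percentile or at the 95th percentile of the negative controls, and 1 without the H2 genes. For Ccrl2- secretome over PBS, the 8 higher members became 5 of 6 without the H2 genes and 3 of 4 with the floor at the negative controls. For Ccrl2+ over Ccrl2- secretome, the 8 lower members became 5 at 3-fold, 5 without the H2 genes and 3 with the floor at the negative controls. At 1.5-fold, 1 member (Tap2) was lower than PBS with each secretome in cardiomyocytes and 4 were lower in fibroblasts than in cardiomyocytes in PBS. The median of that last comparison, -0.64, became 0.03 over 3 members under either higher floor and -0.23 with values raised to the floor. The smaller counts follow from fewer members entering or from the higher fold. The share of all genes was not counted at 1.5-fold, at 3-fold or with the floor at the 75th percentile. On every array 5 members did not exceed the 95th percentile of the controls, and this limits what the array can resolve.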
